A study of Rattus norvegicus with 2 samples.

Results

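The genes described here are 34 transcripts known to be induced by hypoxia that do not encode glycolytic enzymes. They were chosen by symbol for a known induction by hypoxia. The choice was made with earlier results of these data known, so the counts below were not made blind to them. Values of the genes were read from array rows whose platform annotation carried 1 gene symbol. Of the 34 genes, 33 were found in this way, each with 1 row, among 22093 genes on the arrays. The row for Ppp1r3c, a glycogen-targeting subunit of protein phosphatase 1, carried 2 symbols and was not used. Primary heart muscle cells of newborn SD rats were kept in culture for several days and then treated. The LPS group received lipopolysaccharide, a bacterial outer membrane component sensed by Toll-like receptor 4, at 100 ng/mL, and the other cells received vehicle. RNA was taken at 24 h in both groups. Each group was 1 array, so no spread between samples exists and no test was run. Differences are given as log2 of LPS minus log2 of vehicle, folds are LPS over vehicle, and both describe these 2 arrays only. How many cultures or animals stand behind an array is not stated in the labels.

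Hypoxia-inducible factor (HIF) is a transcription factor made of an oxygen-regulated alpha subunit, HIF-1α or HIF-2α, and a constant partner, ARNT. When oxygen is plentiful, prolyl hydroxylases mark the alpha subunit for destruction through the von Hippel-Lindau protein. When oxygen is short, or when the hydroxylases are inhibited, HIF accumulates and binds short DNA elements near its target genes. Besides glycolysis, its targets serve removal of mitochondria, collagen maturation, histone demethylation, blood vessel growth and restraint of protein synthesis. In macrophages LPS is known to induce Hif1a through NF-κB without a fall in oxygen. HIF protein and oxygen were not measured by these arrays.

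Most of the hypoxia-inducible genes had higher values on the LPS array. Of the 33 genes, 28 were higher, 2 were lower and 3 had exactly the same value on both arrays. Values higher by 2-fold or more were found for 10 of the 33 genes, and none was lower by that size. The background is the 14420 genes above the floor, for which the higher of the 2 values reached 49.3, the median of all rows. Of these, 22.4% were higher and 31.7% lower at any size. By 2-fold or more, 3.69% were higher and 2.63% lower. Most genes of the set lay well above that floor, and for 31 of 33 the higher value reached 236, the 75th percentile of row means. For Angptl4, Ndufa4l2 and Ak4 only the LPS value reached it. Over the 9371 genes whose higher value reached that level, 5.25% were higher by 2-fold or more and 3.65% lower. At a size of 1.2-fold, 22 of 33 were higher and none lower. By that size, 10.5% and 12.9% of genes above the floor were higher and lower. Over the 9371 genes the shares were 13.6% and 16.4%. The median difference of the 33 genes was 0.78, a fold of 1.72, whereas the median over all genes above the floor was 0. That median of 0 falls among the 45.9% of those genes with identical values on both arrays. The middle 50% of the set ran from 0.18 to 1.18. In RNA from whole cultures, fewer cells of a type and less RNA per cell cannot be told apart.

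Identical values on both arrays were common in the deposited table, at 45.9% of genes above the floor and 33.1% of genes that reached 236. In the set they were found for Jmjd6, Cited2 and Fut11, 3 of 33 genes. How exact ties arose is not stated, so a tie is read only as no recorded difference. The deposited intensities went up to 547546 on the LPS array and 526444 on the vehicle array, beyond the range of a 16-bit scanner, so they have no known unit and a fold is a fold of deposited values. A smooth trend of the difference on level ran between -0.02 and 0.07, smaller than most differences given here. After its removal, 10 genes of the set still reached 2-fold.

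**Figure D1:**
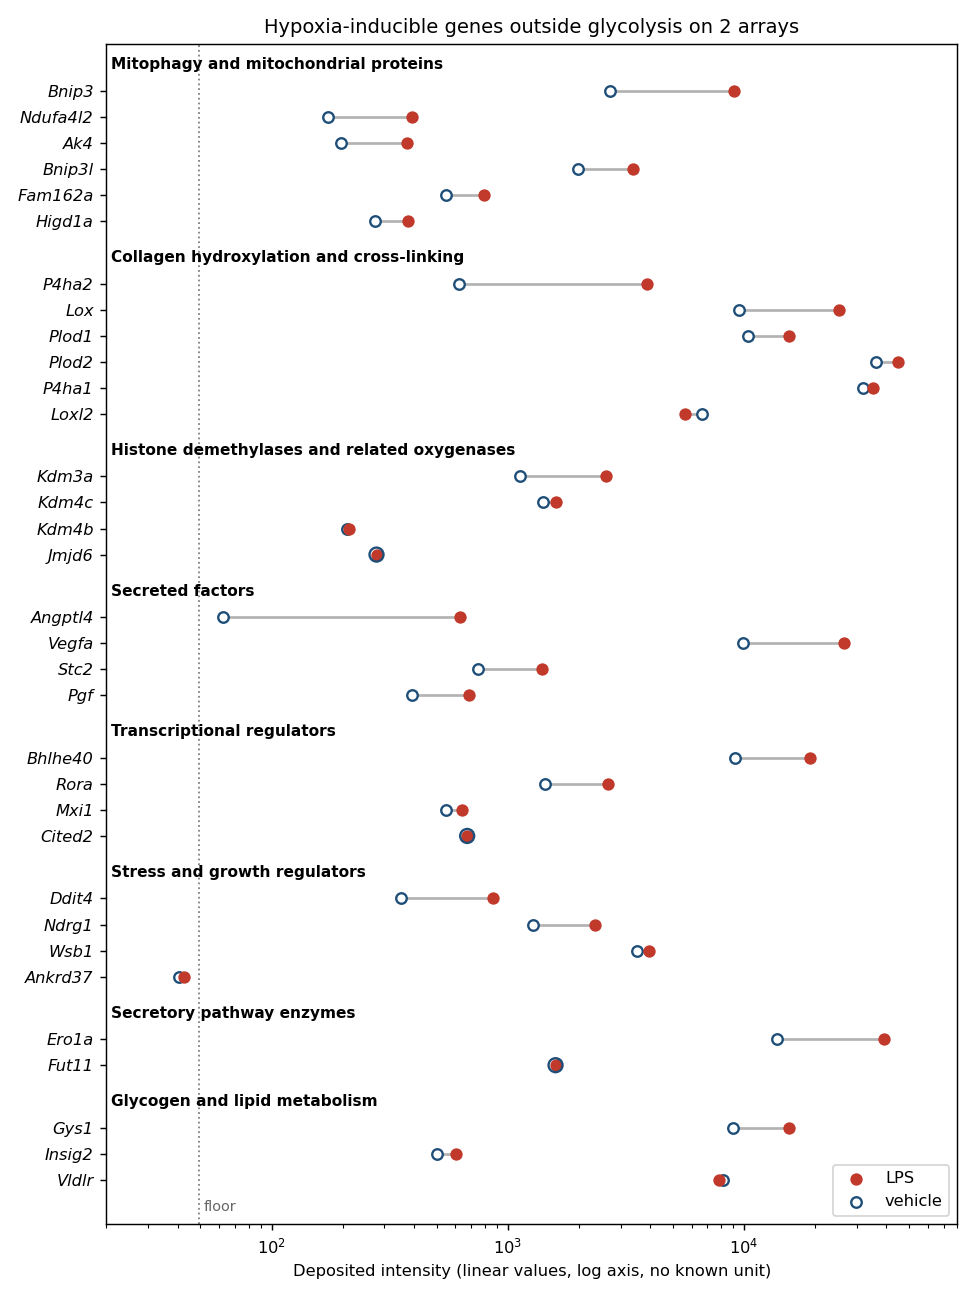
Deposited intensity of each hypoxia-inducible gene (horizontal log axis, no known unit) on the LPS array (filled red) and the vehicle array (open blue), grouped by role, with the floor of 49.3 as a dotted line. A red point inside a blue ring marks identical values. Most red points lie to the right of their blue partner, Loxl2 and Vldlr lie slightly to the left, and Ankrd37 lies below the floor on both arrays.

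**Figure D2:**
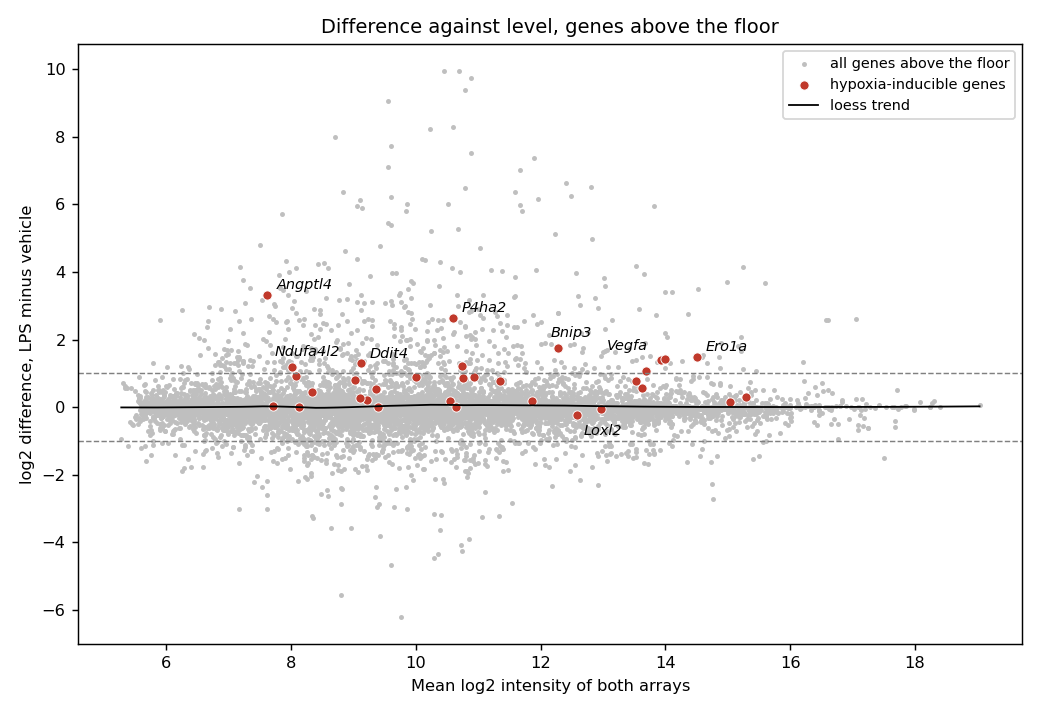
Difference LPS minus vehicle (log2, vertical) against the mean log2 intensity of both arrays (horizontal) for 14420 genes above the floor in grey and 32 hypoxia-inducible genes in red. The black line is the loess trend and the dashed lines mark 2-fold. The red points extend over a wide range of levels, and most lie above 0.

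The set held genes with the HIF core element close to their start, and a few of these promoters are printed because the genes in question had the largest differences or make a contrast within the set. RefSeq promoter windows of build GRCr8, from 250 bases before to 50 bases after the annotated start, were at hand for 29 of the 34 genes in 32 windows. The HIF core was searched as ACGTG and GCGTG on both strands. Where ACGTG follows a C, the site reads CACGTG, the E-box bound by other helix-loop-helix factors, and it then matches on both strands. At least 1 match was found in 25 of the 32 windows (78.1%), whereas 41.6% of all 33469 windows and 56.7% of the 12937 windows of genes above the floor held one. The form ACGTG was found in 16 of 32 windows, against 19.3% of all windows and 23.3% of those of genes above the floor. CACGTG was found in 7 of 32 (21.9%), against 6.42% and 8.65%. These are matches of letters in a short window, and binding was not measured. The 5 windows below run 5′ to 3′ along the gene, and the capitals mark the matches on either strand.

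Angptl4, chr7:15258632-15258931, strand -: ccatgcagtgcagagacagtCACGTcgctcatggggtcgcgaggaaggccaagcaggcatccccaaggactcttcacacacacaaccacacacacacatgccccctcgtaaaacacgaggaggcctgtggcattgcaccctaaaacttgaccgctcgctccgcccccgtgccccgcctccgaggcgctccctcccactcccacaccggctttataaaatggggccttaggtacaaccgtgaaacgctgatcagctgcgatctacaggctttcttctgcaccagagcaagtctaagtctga
P4ha2, chr10:38743644-38743943, strand +: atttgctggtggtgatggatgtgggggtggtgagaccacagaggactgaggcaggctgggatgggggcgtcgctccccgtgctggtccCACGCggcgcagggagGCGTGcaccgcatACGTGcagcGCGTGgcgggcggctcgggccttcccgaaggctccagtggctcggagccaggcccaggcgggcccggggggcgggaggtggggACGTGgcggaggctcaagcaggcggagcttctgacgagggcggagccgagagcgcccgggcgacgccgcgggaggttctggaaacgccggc
P4ha1, chr20:27844796-27845095, strand +: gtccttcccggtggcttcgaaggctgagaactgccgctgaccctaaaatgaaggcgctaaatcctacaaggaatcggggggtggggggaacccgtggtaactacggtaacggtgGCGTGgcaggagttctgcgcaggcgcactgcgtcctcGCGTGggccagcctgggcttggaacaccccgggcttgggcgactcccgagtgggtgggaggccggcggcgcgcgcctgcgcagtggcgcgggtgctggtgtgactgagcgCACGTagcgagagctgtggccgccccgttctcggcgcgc
Bnip3, chr1:203154913-203155212, strand -: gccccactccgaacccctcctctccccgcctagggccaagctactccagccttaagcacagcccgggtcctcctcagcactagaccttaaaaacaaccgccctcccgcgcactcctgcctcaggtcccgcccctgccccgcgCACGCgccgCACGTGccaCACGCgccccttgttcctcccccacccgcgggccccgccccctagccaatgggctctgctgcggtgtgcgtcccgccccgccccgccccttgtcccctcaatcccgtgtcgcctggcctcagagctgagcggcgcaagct
Ankrd37, chr16:53001257-53001556, strand +: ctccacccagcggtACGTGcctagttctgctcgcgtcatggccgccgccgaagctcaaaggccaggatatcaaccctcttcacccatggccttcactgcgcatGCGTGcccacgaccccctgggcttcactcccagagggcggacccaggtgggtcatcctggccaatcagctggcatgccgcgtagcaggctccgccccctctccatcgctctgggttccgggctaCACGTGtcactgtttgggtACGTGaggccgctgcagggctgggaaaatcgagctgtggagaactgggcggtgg

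The P4ha2 window held 5 matches, from position -162 to -37, counted from the start. The P4ha1 window held 3, of which the match to ACGTG lay at positions 12 to 16. In the Bnip3 window 4 matches lay from position -108 to -86, and they included an E-box. Angptl4 had 1 match, at positions -230 to -226. Ankrd37, an ankyrin repeat protein regarded as a direct HIF target, had 5 matches, yet its intensities were 42.6 with LPS and 40.8 with vehicle, both below the floor. Of the 8 genes with a window that were at least 2-fold higher, 6 held a match, and of the 20 measured genes under that size 18 did. The windows of Vegfa, Ndufa4l2, Rora and Stc2 held none of these letters. Elements farther from the start were not searched.

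**Figure D3:**
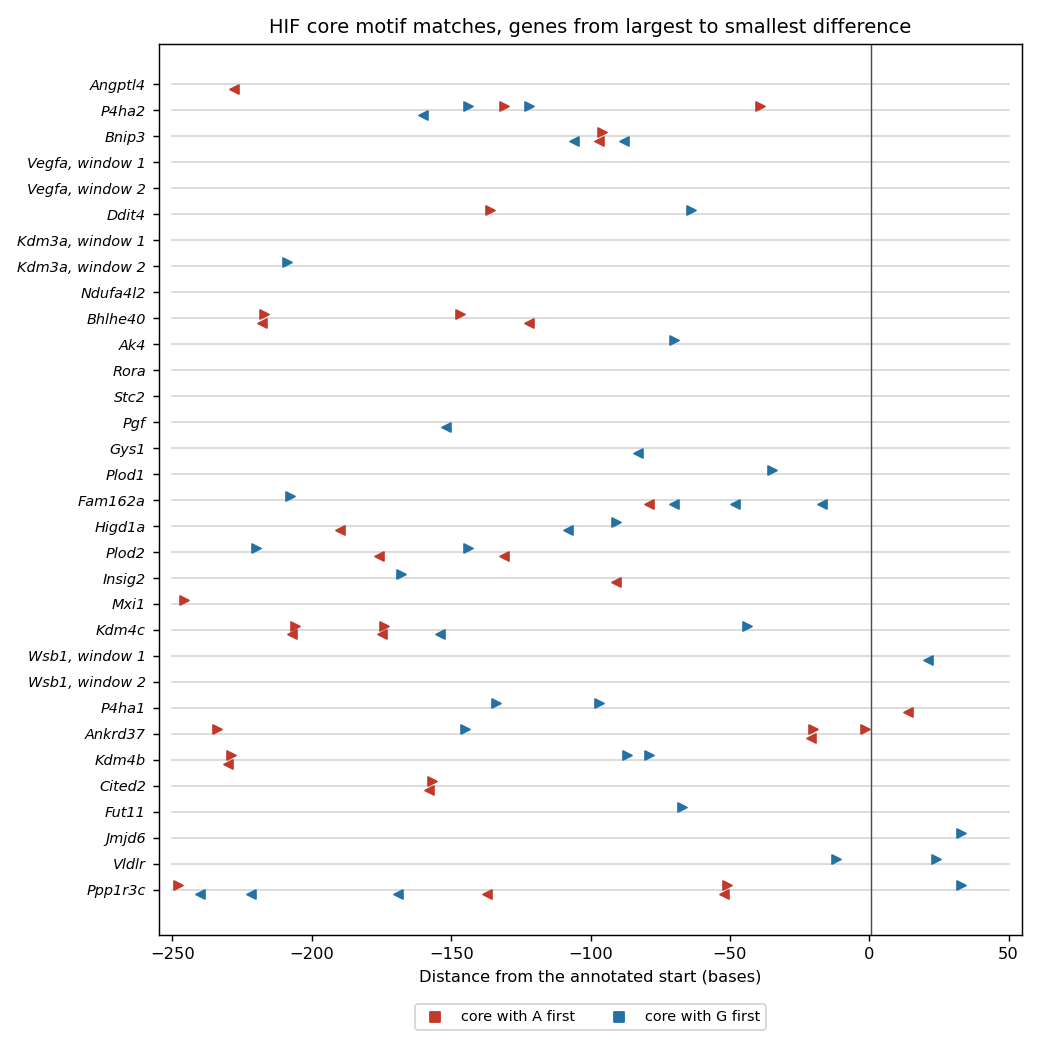
Matches to the HIF core in the promoter windows of the set (horizontal, bases from the annotated start), with genes ordered from the largest log2 difference at the top to the smallest, and Ppp1r3c, which had no value, last. Arrowheads give the strand and colours the 2 forms of the core. Matches appear in windows from the top to the bottom of the order.

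Genes of mitophagy and mitochondrial proteins were higher throughout, all 6 of them by at least 1.2-fold and 2 by at least 2-fold, with a median difference of 0.85. Among all genes above the floor, 10.5% were higher by 1.2-fold or more and 3.69% by 2-fold or more. Bnip3 (Entrez 84480) encodes an outer membrane receptor that links mitochondria to the autophagy machinery. Its intensity was 9079.8 with LPS and 2697 with vehicle, 3.37-fold higher, and 280 of 14420 genes were higher by a larger factor. Bnip3l, also called NIX, a receptor of the same kind known from red cell maturation, had 3403 with LPS and 1979.9 with vehicle, 1.72-fold higher. Thus both receptors were higher on the LPS array, Bnip3 by the larger factor.

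Ndufa4l2 encodes a relative of a cytochrome c oxidase subunit that is known to lower complex I activity in hypoxic cells. It had 391.5 with LPS and 173 with vehicle, 2.27-fold higher, but 1.66-fold when values under 236 were raised to that level. Ak4, a nucleotide kinase of the mitochondrial matrix, had 373 with LPS and 198 with vehicle, 1.89-fold higher. The 2 genes had low vehicle values, so their folds rest on the dim end of the scale. Fam162a, a mitochondrial protein linked to hypoxic cell death, had 796 with LPS and 546 with vehicle. Higd1a, an inner membrane protein that associates with the respiratory chain, had 377 with LPS and 274 with vehicle. These last genes were 1.46-fold and 1.37-fold higher, the smallest differences of this group.

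The collagen-modifying enzymes were uneven. Of 6 genes, 4 were at least 1.2-fold higher, 2 of these at least 2-fold, and the median difference was 0.45. By those sizes, 10.5% and 3.69% of all genes above the floor were higher. P4ha2 (Entrez 360526) and P4ha1 encode alternative catalytic subunits of collagen prolyl 4-hydroxylase, which makes the hydroxyproline that stabilises the collagen triple helix. P4ha2 had 3865 with LPS and 619 with vehicle, 6.25-fold higher, and 145 of 14420 genes were higher by a larger factor. P4ha1 had 35289 with LPS and 31953 with vehicle, a log2 difference of 0.14. The promoter windows of both held HIF core matches, as printed above, while their differences were 2.64 and 0.14 on the log2 scale.

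Plod1 and Plod2 encode lysyl hydroxylases, which prepare collagen for cross-linking. Plod1 had 15501 with LPS and 10353 with vehicle, and Plod2 had 44824 with LPS and 36028 with vehicle, 1.24-fold higher. The log2 difference of Plod1 was 0.58, the larger of the 2. Lox and Loxl2 encode secreted amine oxidases that carry out the cross-linking. Lox (Entrez 24914) had 25275 with LPS and 9540.04 with vehicle, 2.65-fold higher. Loxl2 went the other way, at 5650.02 with LPS and 6636 with vehicle, 1.17-fold lower, or a log2 difference of -0.27 after the trend was removed. Both oxidases are matrix enzymes induced by HIF in other settings. On these arrays Lox was past 2-fold, while the lower value of Loxl2 was under 1.2-fold as deposited. With 1 array per group, there is no spread against which either difference could be judged.

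Among 4 oxygen-dependent chromatin and RNA-processing enzymes, Kdm3a was the exception. These dioxygenases use iron and 2-oxoglutarate, as the HIF prolyl hydroxylases do. Kdm3a (Entrez 312440), a histone lysine demethylase, had 2598 with LPS and 1126 with vehicle, 2.31-fold higher. Kdm4c, a demethylase of another subfamily, had 1605 with LPS and 1405 with vehicle, a log2 difference of 0.19. Kdm4b, its close relative, had 212 with LPS and 209 with vehicle, a log2 difference of 0.02 that was just below 0 once the trend was removed. Jmjd6, a lysyl hydroxylase of splicing proteins, had 278 on both arrays. The median of the 4 was 0.11, and apart from Kdm3a none reached 1.2-fold. By that size, 10.5% of all genes above the floor were higher.

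The secreted factors were higher by at least 1.2-fold in 4 of 4 genes and by at least 2-fold in 2, with a median difference of 1.15. By those sizes, 10.5% and 3.69% of all genes above the floor were higher. Angptl4 (Entrez 362850) encodes a secreted protein that inhibits lipoprotein lipase and is induced by HIF and by fatty acid receptors of the PPAR family. Its intensity was 625 with LPS and 62.1 with vehicle, 10.1-fold higher, and 84 of 14420 genes were higher by a larger factor. The vehicle value lay near the floor, and with values under 236 raised the fold was 2.65. Lpl, the lipase that ANGPTL4 inhibits, had 9055 with LPS and 23057 with vehicle, 2.55-fold lower. Thus the inhibitor was higher and its enzyme lower at the level of RNA.

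Vegfa (Entrez 83785) encodes the main growth factor of blood vessels. It had 26536 with LPS and 9926 with vehicle, 2.67-fold higher. Pgf, the related placental growth factor, had 684 with LPS and 395 with vehicle, 1.73-fold higher. Among their receptors the values differed in direction. Kdr, which binds VEGFA, had 1975 with LPS and 715 with vehicle, 2.76-fold higher. Flt1, which binds both ligands, had 191 with LPS and 241 with vehicle, 1.26-fold lower, and a second row for the gene had 62.0 on both arrays. The co-receptor Nrp1 had 6233 on both arrays, and Nrp2 was 1.86-fold higher. Lrp1, a large endocytic receptor on the same list, was 1.47-fold higher. Kdr and Flt1 are also markers of endothelial cells. Of the other markers on that list, Tek had 246 with LPS and 346 with vehicle, and Pecam1, Cdh5 and Vwf had 82.8, 77.6 and 49.3 with LPS and 82.8, 88.3 and 49.3 with vehicle. Stc2, a secreted glycoprotein of the stanniocalcin family, had 1389.6 with LPS and 752 with vehicle, 1.85-fold higher.

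Of 4 transcriptional regulators, Bhlhe40 and Rora were higher and the others differed by less than 1.2-fold. Bhlhe40 (Entrez 79431), a repressor that joins the circadian clock and the hypoxia response, had 19018 with LPS and 9125 with vehicle. Its fold of 2.08 was the smallest among the genes past 2-fold, and Ak4, at 1.89, was the nearest gene below that size. Rora, a nuclear receptor that drives clock genes, had 2659.7 with LPS and 1433 with vehicle, 1.86-fold higher. Mxi1, a partner of MAX that opposes MYC, had 641 with LPS and 549.8 with vehicle, a log2 difference of 0.22. Cited2, which competes with HIF-1α for the coactivators CBP and p300 and so restrains HIF, had 673 on both arrays.

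Ddit4 and Ndrg1 were the stress genes that differed by at least 1.2-fold. Ddit4 (Entrez 140942), also called REDD1, restrains the growth kinase mTORC1 when oxygen or energy is short. It had 869.7 with LPS and 353 with vehicle, 2.47-fold higher. Ndrg1, a cytoplasmic protein induced by hypoxia and by iron depletion, had 2333 with LPS and 1272 with vehicle, 1.83-fold higher. Wsb1, part of a ubiquitin ligase, had 3978 with LPS and 3521 with vehicle, a log2 difference of 0.18, and Ankrd37 was below the floor as given above. With Ankrd37 counted, the median of these 4 genes was 0.53, and without it 0.87.

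In the secretory pathway, Ero1a (Entrez 171562) encodes the oxidase that supplies disulfide bonds to newly made proteins in the endoplasmic reticulum. Its intensity was 38930.1 with LPS and 13788 with vehicle, 2.82-fold higher. Fut11, a fucosyltransferase that is a common member of hypoxia signatures, had 1592 on both arrays. Only Ero1a of these 2 genes had a recorded difference.

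The metabolic genes of the set showed small to moderate differences. Gys1, the glycogen synthase of muscle, had 15537 with LPS and 9000.3 with vehicle, 1.73-fold higher. Insig2, which holds the sterol sensor SCAP in the endoplasmic reticulum, had 606 with LPS and 499.8 with vehicle, 1.21-fold higher. Vldlr, a receptor for triglyceride-rich lipoproteins, had 7815 with LPS and 8159 with vehicle, a log2 difference of -0.06. None of the 3 genes reached 2-fold, where 3.69% of all genes above the floor were higher by that size. Ppp1r3c, the 4th of the group, had no usable row.

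**Figure D4:**
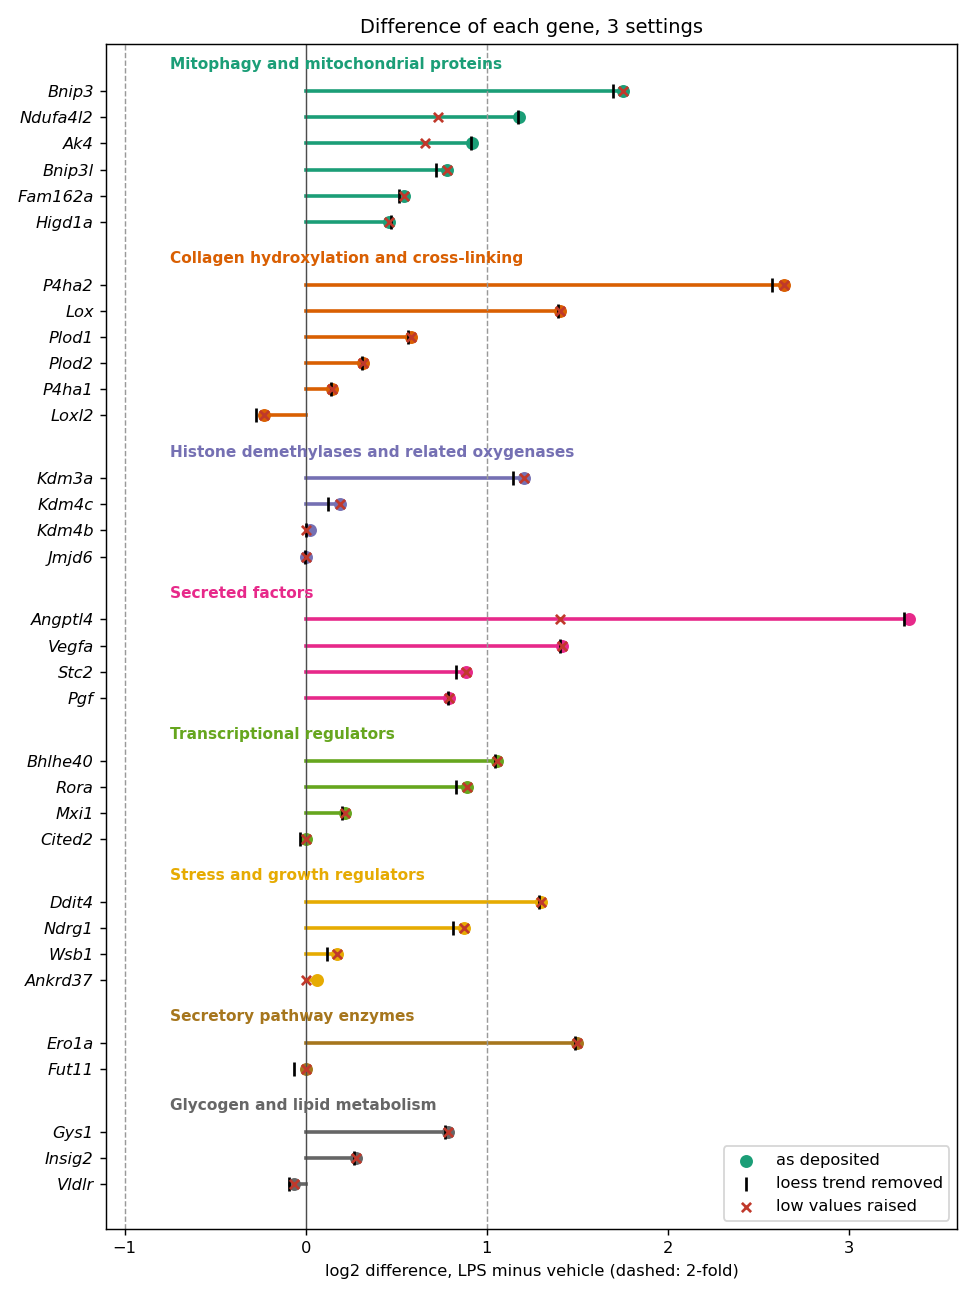
Difference LPS minus vehicle (log2, horizontal) for each hypoxia-inducible gene as deposited (points at the ends of lines), after removal of the loess trend (black ticks) and with values under 236 raised to that level (red crosses), grouped by role. Dashed lines mark 2-fold. With low values raised, the fold of Angptl4 is 2.65 in place of 10.1 and that of Ndufa4l2 1.66 in place of 2.27, and the settings nearly coincide for most others.

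Paralogs of the set genes were set beside them by family, with the families of the plot put together after the data were seen. The plot held 19 families, and 29 paralogs outside the set were above the floor. The lysyl hydroxylases and the BNIP3 receptors were drawn with set genes only. Of the 29 paralogs, 2 were higher by 2-fold or more, 3 were lower by that size and 10 (34.5%) were identical, with a median of 0. Of all genes above the floor, 3.69% were higher by 2-fold or more, 2.63% lower by that size and 45.9% identical. Stc1, one of these paralogs, also stood on the list of further HIF targets below. The set genes and paralogs are given side by side without a test.

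Among other collagen-modifying genes, none of 10 was higher by 2-fold or more and 2 were lower by that size, with a median of -0.14. The shares of all genes above the floor were 3.69% and 2.63%. Loxl1, a lysyl oxidase relative tied to elastic fibres, had 1286 with LPS and 3822 with vehicle, 2.97-fold lower. P3h2, a collagen prolyl 3-hydroxylase, had 5719.6 with LPS and 15727 with vehicle, 2.75-fold lower. The collagen chaperone gene Serpinh1 had a log2 difference of -0.51, and P4ha3, the third catalytic subunit, one of -0.10. Loxl3 had a log2 difference of -0.23 and Loxl4 was identical on both arrays. P4hb, protein disulfide isomerase and the shared partner of the P4ha subunits, had 54458 with LPS and 32373 with vehicle, 1.68-fold higher. Higher values of P4ha2, Lox and P4hb thus stood beside lower values of Loxl1, P3h2 and Serpinh1 on the same arrays.

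In the other families, relatives of the set genes were higher, lower or identical. Kdm3b and Jmjd1c, the closest relatives of Kdm3a, were identical on both arrays, and over 18 JmjC genes outside the set none reached 2-fold. Of all genes above the floor, 3.69% were higher and 2.63% lower by that size, so none among 18 genes says little about the family. Kdm4a, at 1.32-fold higher, had the largest difference among those 18, followed by Kdm5b, Kdm6b and Kdm2a at log2 differences of 0.24, 0.23 and 0.20. Among 6 relatives of the mitochondrial genes, the largest differences were those of Ak3, at 0.67, and Pink1, a kinase that starts mitophagy, at 0.41, and Higd2a and Bcl2l13 had -0.09 and 0.02. Ero1b, the relative of Ero1a, was identical at 338, and Ndufa4, the relative of Ndufa4l2, at 11747. Stc1 had 2492 with LPS and 5681 with vehicle, 2.28-fold lower, opposite in direction to Stc2. Angptl2 had 5201 with LPS and 13748 with vehicle, 2.64-fold lower, opposite to Angptl4, and Angptl6 was identical. Vegfd, in contrast, was 2.48-fold higher, Vegfb was identical and Vegfc was 1.59-fold lower. The angiopoietin gene Angpt1 was 19.6-fold higher, at 5924 with LPS and 303 with vehicle. Mxd1, a relative of Mxi1, was 2.49-fold higher, and the liver glycogen phosphorylase gene Pygl 2.83-fold. Bhlhe41, the relative of Bhlhe40, had a log2 difference of 0.43, and the glycogenin gene Gyg1 one of -0.45.

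**Figure D5:**
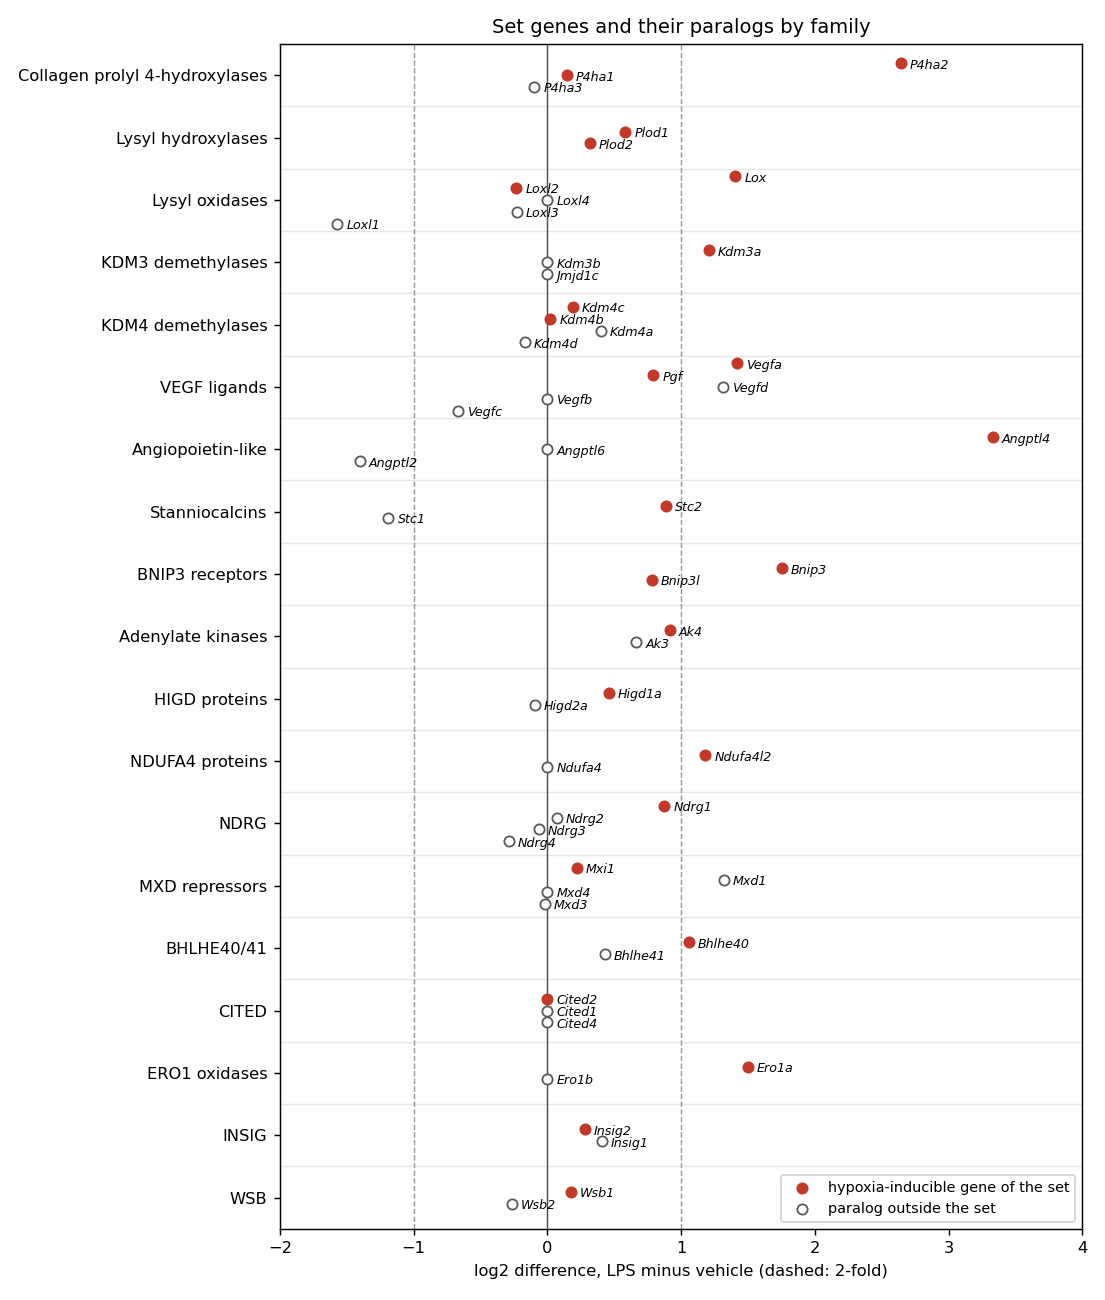
Difference LPS minus vehicle (log2, horizontal) of the set genes (filled red) and of their paralogs outside the set (open) in 19 gene families, for genes above the floor. Dashed lines mark 2-fold. P4ha2, Lox, Kdm3a, Angptl4 and Ero1a lie to the right of every relative drawn in their family, while Vegfd lies beside Vegfa and Mxd1 lies to the right of Mxi1. Angpt1, listed among the paralogs but not drawn, had a log2 difference of 4.29, larger than that of Angptl4. The lysyl hydroxylases and BNIP3 receptors have no paralog drawn.

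The genes of the HIF system itself and of its other targets give the setting. Hif1a had 25774 with LPS and 14533 with vehicle, 1.77-fold higher, and Epas1, which encodes HIF-2α, had 15833 with LPS and 952 with vehicle, 16.6-fold higher. Over 9 subunit and hydroxylase genes above the floor the median was 0.03, and Epas1 was the only gene of the 9 past 2-fold, with Egln1 and Vhl at log2 differences of 0.70 and 0.45. Of 21 glycolytic HIF targets, 7 were higher by 2-fold or more and none was lower by that size, with a median of 0.52, led by Aldoc, Slc2a1, Hk2 and Pfkl at 3.31, 2.08, 1.83 and 1.60. Of all genes above the floor, 3.69% were higher by 2-fold or more and 2.63% lower. Of 31 further genes above the floor reported as HIF targets, 10 were higher by 2-fold or more and 5 lower, with a median of 0.18. That list ran from Nos2, inducible nitric oxide synthase, at 8.24 and Igfbp3, a carrier of insulin-like growth factors, at 6.51, to Ccn2, a matricellular protein, at -3.21 and the growth factor gene Tgfb3 at -4.09. It also held Hilpda, a lipid droplet protein regarded as a sensitive hypoxia marker, with 30.9 on both arrays, below the floor. Other genes of that list differed from Hilpda. Adm had 3410 with LPS and 420 with vehicle, 8.11-fold higher, and Car9 had 234 with LPS and 292 with vehicle.

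The arrays held the muscle cells the label names, with RNA of other cells beside them. Some of the endothelial and macrophage markers lay at or below the floor on both arrays. All 10 cardiomyocyte markers were above the floor, with a median difference of 0, and 1 gene, Myl4, was at least 2-fold lower. For this and the lists that follow, 3.69% of all genes above the floor were higher by 2-fold or more and 2.63% lower. At 1.2-fold, these shares were 10.5% and 12.9%. Actc1, Actn2 and Nppa had log2 differences of -0.58, -0.51 and 0.18. The summed intensity of these markers was 1075656 with LPS and 1154339 with vehicle, but 903685 with LPS and 898080.5 with vehicle without Actc1. Fibroblast markers were also above the floor, with a median difference of -0.41. Of the 10, Dcn, Pdgfra and Lum were higher by 2-fold or more and 6 were lower by at least 1.2-fold, with Col3a1, Thy1 and Tcf21 lower by 2-fold or more. Their sum was 764950 with LPS and 684675 with vehicle, but 587515 with LPS and 670835 with vehicle without Dcn. For 8 markers of smooth muscle and pericytes the median difference was -0.67, with a sum of 214708 with LPS and 479285 with vehicle. Of these, Rgs5 was 2.51-fold higher, Tagln and Acta2 were 4.88-fold and 2.81-fold lower, and Cspg4 had a log2 difference of -0.84. Of 9 endothelial markers only Kdr reached 2-fold, 4 were lower, and the median was 0. Their sum was 2773 with LPS and 1674 with vehicle, but 798 with LPS and 959 with vehicle without Kdr. Macrophage markers had a median of -0.20, with 2 of 10 higher by 2-fold or more and 3 lower. Adgre1 had 8803 with LPS and 64.4 with vehicle, and Itgam had 1176 with LPS and 476 with vehicle, 2.47-fold higher. C1qb, Mrc1 and Csf1r were 4.07-fold, 3.49-fold and 3.39-fold lower, while Cd163 was below the floor on both arrays. The sum of the macrophage markers was 33000.5 with LPS and 27325 with vehicle, but 24198 with LPS and 27261 with vehicle without Adgre1. In each list the gene left out of the sum was the one whose intensity differed most between the arrays, a choice made after seeing the data. Collagen-modifying enzymes are known to be made by fibroblasts as well as muscle cells, and the part of each cell type in the differences of P4ha2 and Lox was not tested.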

How the data were processed

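RNA of 1 LPS and 1 vehicle culture sample was measured on Affymetrix whole-transcript arrays with biotin-labelled cRNA, per the labels' protocols. The authors processed the arrays with RMA in Affymetrix Expression Console 1.4.1, per the submitters' processing notes, and deposited 1 linear intensity per row and array. What was done after RMA, and the genome build, are not stated there.

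Differences were computed here on log2 values, without a pseudocount, in Python 3.11.15 (numpy 2.4.6, pandas 2.3.3). Of 68842 rows, 23446 carried 1 symbol in the platform table. For a gene with several rows, the row with the highest mean log2 was used. Symbols were updated through Entrez IDs against RefSeq (GRCr8). Fixed sizes of 2-fold and 1.2-fold replaced a test. The counting and the trend removal were tested on simulated data. Alternatives were median centring, removal of a loess trend (R 4.3.3, span 0.3, degree 2, no robust iterations), other choices of row, other sizes, floors at 49.3 and 236, and raising of values under 236. The genes, lists and rules were chosen with earlier results of these data known. All genes of the set were named. Outside it, the rule named up to 4 genes above the floor with the largest absolute difference in each list, receptors of the secreted factors, Hif1a, Epas1 and direct paralogs of genes that differed at least 2-fold. Hilpda, Adm, Car9, Pecam1, Vwf, Col3a1, Tcf21, Itgam and Cd163 fall outside it and were chosen after their values were seen. Of 203 genes in the other lists, 189 had a usable row.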

Additional observations from a re-analysis of the deposited data

How the results depend on the processing

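The 10 genes at least 2-fold higher kept that size after median centring, after removal of the loess trend and with other choices of row, and 9 of them did with values under 236 raised, when Ndufa4l2 fell short. At 1.5-fold, 17 genes were higher, and at 3-fold, 3 were. With the trend removed, 1 gene, Loxl2, was at least 1.2-fold lower, the median of the stress and growth genes was 0.82 because Ankrd37, below the floor, dropped out, and Kdm4b turned from 0.02 to just under 0 (-1.06e-05). With low values raised, the median of the set was 0.66 and that of the mitochondrial genes 0.70, because both values of dim genes are pulled together by construction. With the floor at 49.3 or at 236, the median of the stress and growth genes was 0.87, again without Ankrd37. Median centring and the choice of row changed no value of the 33 genes, since the median difference was 0 and each gene had 1 row. With low values raised, 31 of the 33 gene differences moved by less than 1.2-fold, while the fold of Angptl4 became 2.65 in place of 10.1 and that of Ndufa4l2 became 1.66 in place of 2.27. No paired analysis was possible because each group is 1 array. For the same reason the size of chance differences is unknown, and differences near 1.2-fold or on dim rows are the least certain. Without the gene that differed most, chosen after seeing the data, the summed marker intensity of LPS minus vehicle changed sign for cardiomyocytes (5604), fibroblasts (-83320), endothelial cells (-162) and macrophages (-3063), and not for smooth muscle and pericytes.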
